A study of Mus musculus with 12 samples.

Results

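Dendritic cells take up antigen in the gut wall and present it to CD4+ T cells on MHC class II molecules. A class II molecule is a pair of alpha and beta chains, assembled in the endoplasmic reticulum with the invariant chain, which guides it to endosomes and holds its groove until peptide is loaded. B cells and macrophages also carry class II, and the transcriptional coactivator Ciita, acting through factors bound to the X and Y boxes of the promoters, sets its transcription.

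The 9 genes described here belong to this system and were followed in the mouse cecum after cauterization, chosen by gene name among the non-control probes of the arrays. Of 37074 gene names on 56605 probes, 9 genes with 18 probes were taken. Those of class II were H2-Aa and H2-Ab1, the alpha and beta chains of I-A, H2-Eb1, the beta chain of I-E, and Cd74, the invariant chain. The genes of dendritic cells were Itgax, which encodes CD11c, Flt3, the receptor of the growth factor Flt3l, Zbtb46, a transcription factor of conventional dendritic cells, Xcr1, a chemokine receptor of type 1 conventional dendritic cells, and Batf3, a transcription factor that type 1 cells need to develop.

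Total RNA from cecum tissue was hybridized to 12 one-colour arrays, 3 for each of 4 groups, namely a sham control and tissue taken 3, 12 or 72 h after the cecum was burned with a cautery. The study drew its mice from C57BL/6 stock and describes the arrays as biological triplicates. All samples are labelled male and no age is given. The sham tissue was collected at the time of the operation, so that no sham matches the later times, and time since anesthesia and surgery cannot be told apart from the injury. The arrays lay on 2 slides. Slide 1 held all sham arrays, all 3 h arrays and 12 h replicates 1 and 2, and slide 2 held 12 h replicate 3 and all 72 h arrays. The label of sex did not match the signal: Xist, which is transcribed from the inactive X chromosome, was well above background on 12 of 12 arrays, while Ddx3y and Eif2s3y of the Y chromosome were so on 0 arrays and Uty on 1. The labelled tissue did match its markers, since Epcam, Vil1 and Muc2 of the intestinal epithelium were well above background on 12 of 12 arrays each.

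On each array 62.0% to 66.8% of probes were well above background, 53 to 152 spots were marked as outliers and 0 were saturated, and arrays of a group correlated with r of 0.985 to 0.992. The number of arrays limits the precision of the values.

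Each level is a log2 intensity from which the 75th percentile of that array was taken away, so that 0 is the brightness at that percentile. A gene was called when it differed more than 2-fold with an adjusted p below 0.05 in limma over all probes, and each gene is described by its brightest probe. Levels of different probes cannot be set against each other, because probes hybridize with different strength. Because RNA was taken from whole tissue, fewer cells of a type and less RNA per cell cannot be told apart.

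A probe sequence of each I-A chain is shown, since these genes were read through them. The H2-Aa probe gives all values of that gene, while the H2-Ab1 probe is 1 of 4, and the levels given for H2-Ab1 come from the brightest, A_55_P2146560. The 2 probes match H2-Aa from base 227 and H2-Ab1 from base 528 of their transcripts, at chr17:34421285-34421344 on the minus strand and chr17:34404357-34404416 on the plus strand of mm9.
H2-Aa probe A_52_P343306: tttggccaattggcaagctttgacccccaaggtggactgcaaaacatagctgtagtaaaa
H2-Ab1 probe A_55_P2741874: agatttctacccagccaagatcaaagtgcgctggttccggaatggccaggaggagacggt

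H2-Ab1 had 4 probes, of which A_55_P1962747 and A_55_P2146560 overlap by 51 bases. Within the overlap they differ by 1 base, T51C, counted from 1 at the 5′ end of the first probe. The 19 bases around it are shown with that base in capitals. Since the probes overlap, they count as 1 measurement of the gene, and their levels were nearly the same in every group.
A_55_P1962747: aaacgagacTcagactctg
A_55_P2146560: aaacgagacCcagactctg

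Promoter sequences from RefSeq (GRCm38.p6) were at hand for 7 of the 9 members, all but H2-Ab1 and Cd74. The 120 bases before the start of H2-Aa (chr17:34287824-34287943, minus strand) and H2-Eb1 (chr17:34305747-34305866, plus strand) are shown because these genes kept in step on the arrays. Capitals mark CTGATTGG, which holds the core of the Y box, and GCAACT, a run of the X box region that both share.
H2-Aa: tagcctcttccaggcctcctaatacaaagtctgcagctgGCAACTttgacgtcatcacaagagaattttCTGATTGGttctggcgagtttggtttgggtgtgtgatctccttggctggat
H2-Eb1: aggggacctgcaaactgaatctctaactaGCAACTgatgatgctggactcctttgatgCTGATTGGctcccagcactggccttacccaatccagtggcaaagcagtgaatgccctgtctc

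In H2-Aa the first base of CTGATTGG lay 51 bases before the start and in H2-Eb1 62 bases, with 24 and 23 bases between it and GCAACT. Motifs were searched on either strand of the whole RefSeq window, 250 bases before to 50 after the start, which is longer than the stretch shown. The shorter Y box core GATTGG was found in H2-Aa, H2-Eb1 and Xcr1, and in 16.1% of all 32851 promoters of the same length. The X box end ACAGATG was found in H2-Aa, outside the 120 bases shown, and in Zbtb46, and in 5.01% of promoters. CTGATTGG, which contains GATTGG, was held by 4.1% of promoters and GCAACT by 10.9%. GCAACT was also found in Flt3 and Itgax. The 2 motifs in capitals were chosen after the sequences were read, and these counts describe letters only.

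The first comparison asked whether class II transcripts changed after cecal cauterization. At 3 h 0 of the 4 class II members were called in limma, where 7.37% of all genes were, at 12 h 0 against 9.06% and at 72 h 0 against 8.85%, and 0 had an unadjusted p under 0.05 at these times. Their levels lay below the sham mean at 3 and 12 h and close to it at 72 h, and the widest difference from sham, H2-Ab1 at 12 h, was 1.46-fold. H2-Aa, the I-A alpha chain, read 0.45, 0.16 and 0.38 in the sham group, then -0.52, -0.12 and 0.58 after 3 h, 0.16, -0.57 and -0.08 after 12 h and 0.55, 0.70 and 0.23 after 72 h. The 3 h arrays thus spanned more than all sham and 72 h arrays together, with replicate 1 lowest and replicate 3 highest of the 3. Its mean level fell short of sham by a log2 difference of -0.35 at 3 h (95% confidence interval -0.96 to 0.27, adjusted p = 0.397 in limma) and -0.49 at 12 h (-1.11 to 0.13, adjusted p = 0.262), and was 0.16 above it at 72 h (-0.45 to 0.78, adjusted p = 0.707).

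H2-Ab1, the I-A beta chain, read 5.97, 5.91 and 6.12 in the sham group, then 5.13, 5.64 and 6.19 after 3 h, 5.69, 5.22 and 5.47 after 12 h and 6.22, 6.41 and 5.97 after 72 h. All 12 h arrays lay below all sham arrays, and all 72 h arrays lay above all 12 h arrays. Between 12 h and sham, 36.2% of all genes had arrays that did not overlap. The difference from sham was -0.35 at 3 h (95% confidence interval -0.89 to 0.19, adjusted p = 0.333 in limma), -0.54 at 12 h (-1.08 to 0.00, adjusted p = 0.155) and 0.20 at 72 h (-0.35 to 0.74, adjusted p = 0.609). The other 3 probes of the gene, of which A_55_P1962747 overlaps the brightest, gave differences of -0.39 to -0.29 at 3 h, -0.54 to -0.46 at 12 h and 0.13 to 0.18 at 72 h.

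H2-Eb1, the I-E beta chain, read 6.5, 6.27 and 6.58 in the sham group, then 5.74, 6.09 and 6.72 after 3 h, 6.16, 5.70 and 6.00 after 12 h and 6.51, 6.75 and 6.30 after 72 h. As for H2-Ab1, the 12 h arrays lay below every sham array and below every 72 h array. Its difference from sham was -0.27 at 3 h, -0.50 at 12 h (95% confidence interval -1.02 to 0.03, adjusted p = 0.178 in limma) and 0.07 at 72 h.

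Cd74, the invariant chain, read 5.20, 4.95 and 5.21 in the sham group, then 4.30, 4.82 and 5.48 after 3 h, 5.0, 4.46 and 4.76 after 12 h and 5.05, 5.22 and 4.93 after 72 h. Its groups overlapped in every comparison. The difference from sham was -0.25, -0.38 and -0.05 at 3, 12 and 72 h, with intervals of -0.83 to 0.33, -0.96 to 0.20 and -0.63 to 0.53, so that at 3 h the lowest array alone set the sign: without 3 h replicate 1 the difference was 0.04.

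**Figure D1:**
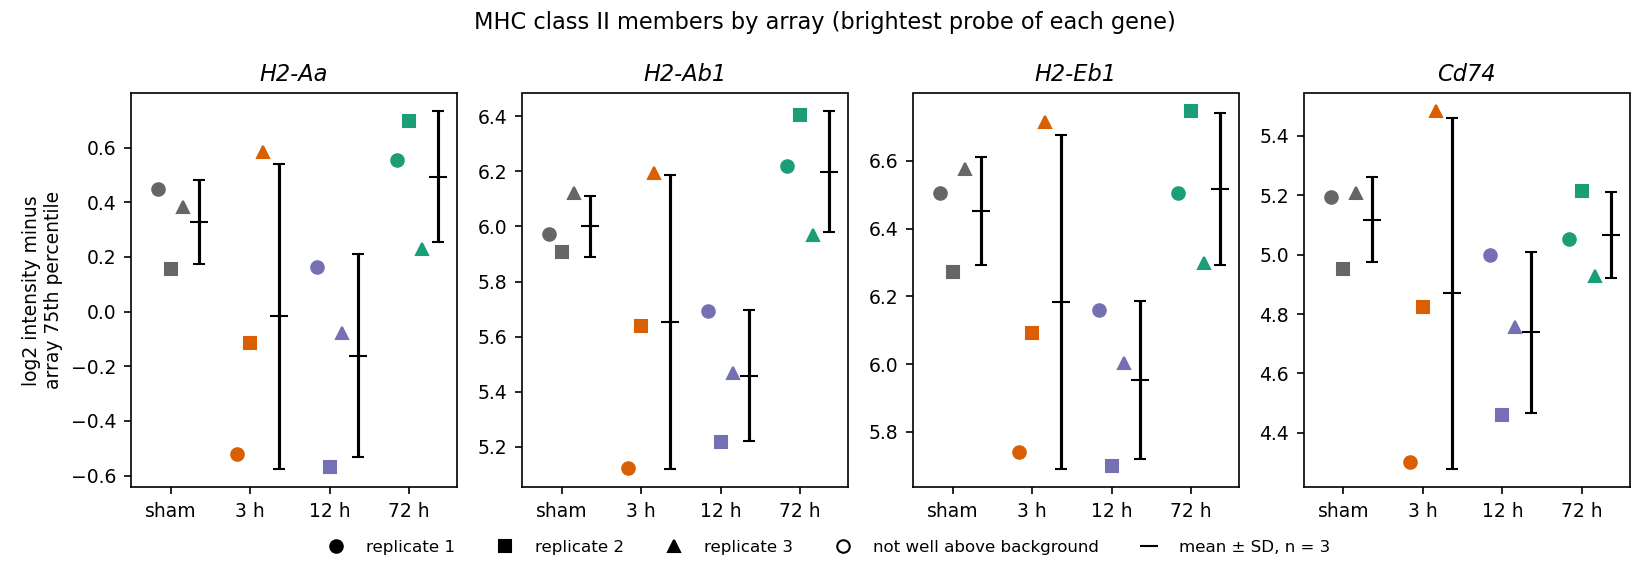
Log2 level, scaled to the 75th percentile of each array, for the 4 class II members in 3 sham arrays and 3 arrays at each of 3, 12 and 72 h, with symbols for replicates and the mean ± SD beside them. For each gene the 3 h arrays are the most spread, and for H2-Ab1 and H2-Eb1 the 12 h arrays lie below all sham arrays.

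Of the steps between times, that from 12 to 72 h was the widest for class II. The log2 difference was 0.74 for H2-Ab1 (95% confidence interval 0.20 to 1.28, adjusted p = 0.0635 in limma), 0.65 for H2-Aa (adjusted p = 0.137), 0.56 for H2-Eb1 (adjusted p = 0.132) and 0.33 for Cd74 (adjusted p = 0.422). The arrays of the first 3 genes did not overlap between these times, as held for 38.5% of all genes, and none passed. Within slide 2, where 1 array of 12 h can be set beside the 72 h arrays, the differences were 0.73, 0.57 and 0.52. For H2-Ab1 quantile normalization gave 1.02 with an adjusted p of 0.0234, which is a call. From 3 to 12 h the differences ran from -0.23 for H2-Eb1 to -0.13 for Cd74.

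Over the 12 arrays the 4 class II members kept in step, with Pearson's r of 0.907 to 0.979 between pairs, given as a description over arrays that share scaling and groups. The genes outside the members whose pattern was most like the class II mean were Bcl2 (r = 0.916), H2-Ea-ps, the alpha-chain pseudogene of I-E (0.909), Sesn3 (0.907) and H2-DMb1, a chain of the peptide-loading molecule H2-M (0.892), followed by an unnamed transcript, among 20784 genes above background on all arrays.

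B cells are another source of class II, and their markers moved with the spread at 3 h. The mean signal of 11 B cell genes, on the log2 scale, was -2.49, 0.13 and 1.48 on 3 h replicates 1, 2 and 3, with the lowest and the highest value on the same arrays as for each class II member, and ranged from 0.84 to 1.63 in sham, 0.56 to 1.77 at 12 h and -0.62 to 0.75 at 72 h. Ms4a1, which encodes CD20, read -2.37, 1.15 and 2.62 on the 3 h arrays and 1.72 to 2.65 on the sham arrays. Of the 11 B cell genes, 0 were called at any time in limma (2, 0 and 1 had an unadjusted p under 0.05 at 3, 12 and 72 h), with median differences of -1.38, -0.16 and -1.23 at 3, 12 and 72 h, and Ms4a1 was above background on all 12 arrays. At 72 h the B cell signal lay below every sham array, while the class II members overlapped with sham. The order of the 3 h replicates was not particular to B cells. It also held for the mean signal of T and innate lymphoid cell genes (-0.06, 0.08 and 0.56) and of mature dendritic cell genes (1.31, 1.59 and 2.04). Intestinal epithelial genes ran in the reverse order (7.63, 7.52 and 7.48). The part of B cells in the class II levels was not tested.

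The genes that surround class II were then counted from a list of other chains, loading factors and costimulators, 14 of which were on the arrays. At 3 h 0 were called, at 12 h 1 was called higher, and at 72 h 2 were called higher, with median differences of -0.13, -0.03 and 0.06. Cd80, a costimulatory ligand of CD28, read -0.19, -0.55 and -0.38 in sham, 1.23, 0.79 and 0.92 at 12 h, and 1.33, 0.69 and 0.68 at 72 h. It rose by 1.35 at 12 h (adjusted p = 0.00243 in limma) and by 1.27 at 72 h (adjusted p = 0.00402, which became 0.132 with the slide as a term). Lgmn, an endosomal protease that takes part in antigen processing, rose by 1.34 at 72 h (adjusted p = 0.00048). Its levels of 5.78, 5.63 and 5.19 then lay above the sham range of 4.01 to 4.39.

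The molecules that load and edit class II peptides gave lower means than sham at 3 h and none was called. H2-Oa, the alpha chain of the H2-O molecule that restrains H2-M, read 0.16, -0.30 and 0.28 in sham and -3.13, -1.21 and 0.03 on the 3 h replicates, the same order of replicates as the B cell markers, with a difference of -1.48 (adjusted p = 0.151 in limma). H2-DMb2 was 1.08 log2 units below sham in the same way, at -4.65, -2.61 and -1.58 on the 3 h arrays against -2.33 to -1.50. The difference of H2-DMa, the alpha chain of H2-M, was -0.77 with an adjusted p of 0.0259 in limma, under 2-fold. All 3 h arrays of this gene lay below all sham arrays, where arrays of 46.6% of all genes did not overlap. At 72 h the H2-DMa difference was 0.25.

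Ciita, the master regulator of class II transcription, was the only gene called among the 8 transcription factors of class II promoters listed. It read 2.80, 2.34 and 2.99 in the sham group, then 0.35, 1.38 and 2.26 after 3 h, 2.45, 1.74 and 2.02 after 12 h and 1.85, 2.13 and 2.06 after 72 h. All 3 h arrays lay below all sham arrays, where arrays of 46.6% of all genes did not overlap. Again replicate 1 was lowest and replicate 3 highest. Ciita fell by 1.38 at 3 h (95% confidence interval -2.28 to -0.49, adjusted p = 0.0379 in limma). All sham and 3 h arrays lay on slide 1, so a slide term could not adjust this difference. Such a fit gave the same values as leaving out 12 h replicate 3 (adjusted p = 0.0511 in limma). The call was lost without any 1 of 8 arrays, with adjusted p up to 0.109. These were any sham array, 3 h replicates 1 or 2, 12 h replicate 3, and 72 h replicates 2 or 3. Without 3 h replicate 1 the Ciita difference was -0.89. Of its 4 probes 3 were above background and gave -1.51 to -1.25. The mean of all 4 gave -1.07 and was not called (adjusted p = 0.0883 in limma). At 12 and 72 h Ciita was 0.64 and 0.70 below sham, with adjusted p of 0.314 and 0.264. Of the RFX and NF-Y subunits, which bind the X and Y boxes, the widest differences at 3 h were those of Rfx5 (-0.84, adjusted p = 0.0143) and Nfyb (0.70, adjusted p = 0.00304), both under 2-fold.

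**Figure D2:**
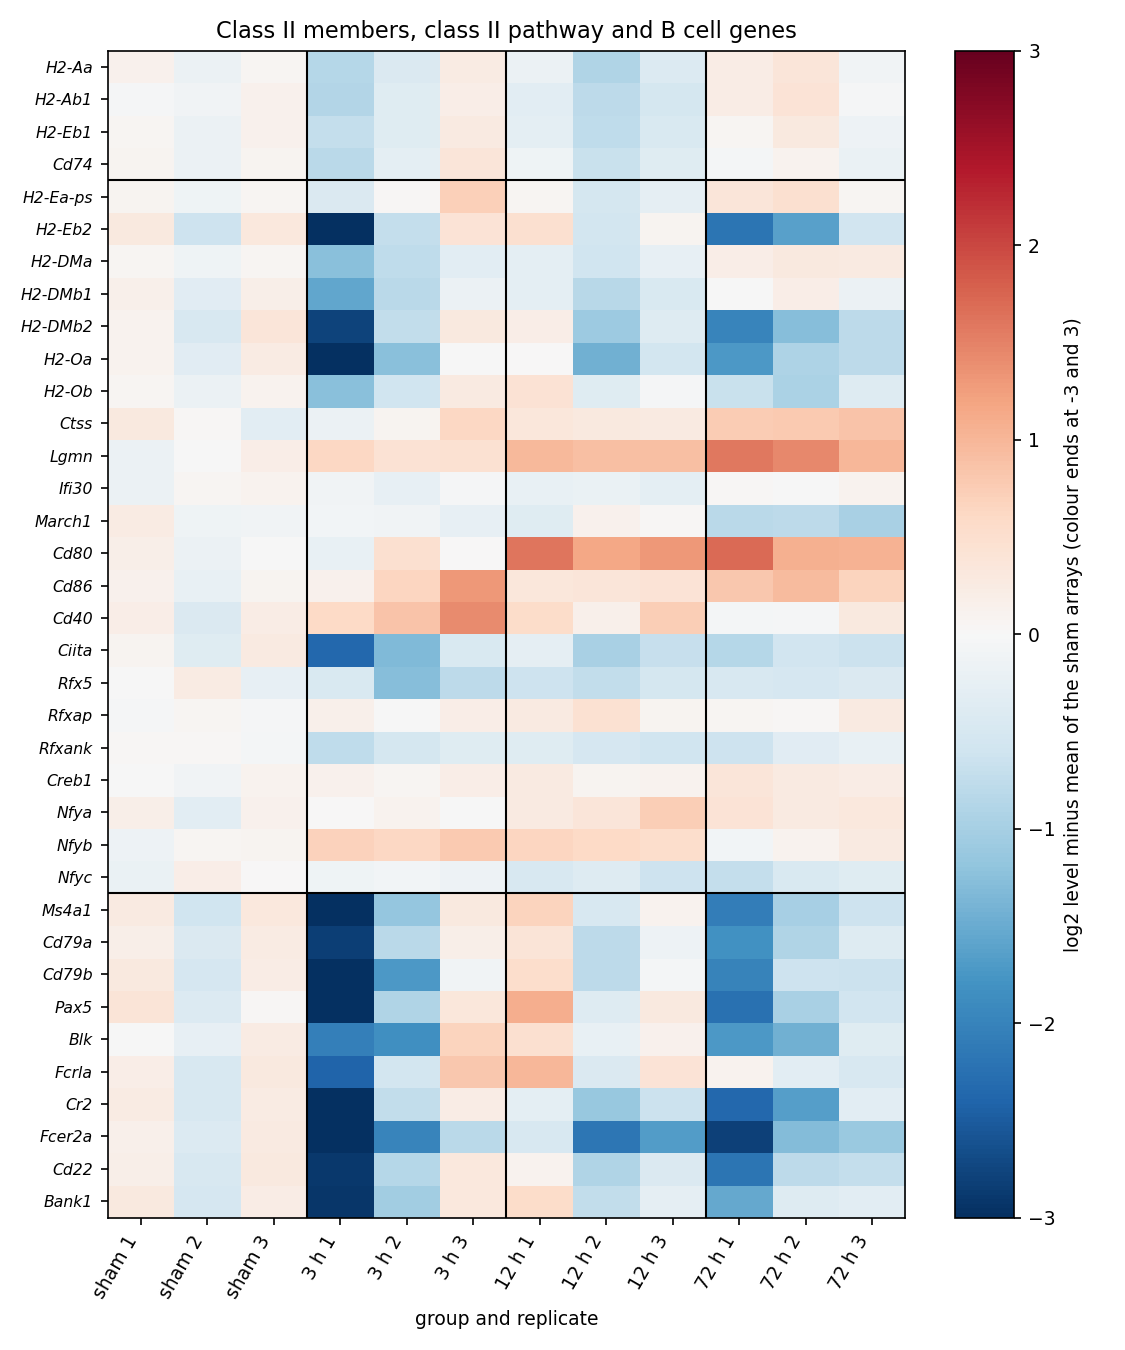
Log2 level on each array (columns, by group and replicate) minus the mean of the sham arrays for the 4 class II members (top), the 22 class II pathway genes (middle) and 10 of the 11 B cell genes (bottom), with colour ending at -3 and 3. On 3 h replicate 1 the B cell genes, H2-Eb2, H2-DMb2, H2-Oa and Ciita are all lowest, and at 72 h H2-DMb2 and H2-Oa are below all sham arrays while the class II members are not.

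The second comparison asked the same of the dendritic cell genes. Batf3 was the only member called in any comparison. It read -1.55, -1.47 and -0.88 in the sham group, then 0.59, -0.02 and -0.20 after 3 h, -0.59, -0.21 and -0.36 after 12 h and -0.56, -0.65 and -0.83 after 72 h. Against sham, arrays of 46.6%, 36.2% and 37.5% of all genes did not overlap at 3, 12 and 72 h. For Batf3 every array after cauterization lay above every sham array. Its level rose by 1.42 at 3 h (95% confidence interval 0.91 to 1.94, adjusted p = 0.0026 in limma), which is 2.68-fold. At 12 h the difference of 0.91 had an adjusted p of 0.0195 and was under 2-fold, and at 72 h it was 0.62 (0.10 to 1.14, adjusted p = 0.091). The difference at 12 h was called without sham replicate 3 (1.12) and without 12 h replicate 1 (1.02). The step from 3 to 12 h was -0.51 (adjusted p = 0.217), and that from 12 to 72 h -0.29 (adjusted p = 0.421). The gene has a single probe, at chr1:192932528-192932587 of mm9.

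Itgax, the CD11c integrin chain, read 0.51, 0.38 and 0.77 in the sham group, then 0.10, 0.45 and 0.32 after 3 h, 0.79, 0.88 and 0.99 after 12 h and 1.09, 1.12 and 1.11 after 72 h. The order of the means was 3 h, sham, 12 h and 72 h. Its 72 h arrays lay above all others, where arrays of 37.5% of all genes did not overlap between 72 h and sham. The difference from sham was -0.26 at 3 h (adjusted p = 0.18 in limma), 0.33 at 12 h (95% confidence interval 0.04 to 0.62, adjusted p = 0.104) and 0.55 at 72 h (0.26 to 0.84, adjusted p = 0.0149), which is 1.46-fold and so was not called. Neighbours in this order did not pass, but 12 h stood 0.59 above 3 h (adjusted p = 0.0221), also under 2-fold. With the slide as a term the 72 h difference was 0.40 (adjusted p = 0.352). The second probe of the gene, A_52_P424887, was dim and went the other way at 72 h, at -0.55 (adjusted p = 0.0692), with 1 of 3 arrays above background there. The third, A_55_P2823539, was not above background on any array. CD11c is also carried by macrophages, and of 13 macrophage genes 0, 3 and 9 were called higher at 3, 12 and 72 h, and 2, 1 and 0 lower. Their mean signal ranged from 1.80 to 1.87 in sham, 1.39 to 1.64 at 3 h, 1.78 to 1.89 at 12 h and 3.24 to 3.40 at 72 h. Csf1r, the growth factor receptor of macrophages, rose by 1.51 at 72 h and Adgre1, a surface marker of macrophages, by 2.66. The part of macrophages in the Itgax level was not tested.

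Flt3 read -1.28, -1.72 and -1.44 in the sham group, then -2.20, -1.81 and -1.36 after 3 h, -1.44, -1.75 and -1.48 after 12 h and -0.84, -0.93 and -1.94 after 72 h. Its groups overlapped throughout, and 72 h replicate 3 lay far under the other two. The differences from sham were -0.31 (95% confidence interval -0.97 to 0.35), -0.08 (-0.74 to 0.58) and 0.24 (-0.42 to 0.90) at 3, 12 and 72 h. The second probe of Flt3, A_66_P126155, which was designed on another transcript, was near background. It was above background on 3 of 3 sham arrays, 0 at 3 h, 2 at 12 h and 1 at 72 h. In sham it was at least 1.37-fold higher than at 3 h (adjusted p = 0.0307 in limma). At 72 h this probe lay 0.73 below sham (adjusted p = 0.0443), under 2-fold and against the sign of the brighter probe. The bound takes the dim arrays at the lowest signal called well above background. Flt3l, the ligand, was listed among the shared dendritic cell genes. It lay below sham by 0.70, 0.52 and 0.49 at the 3 times (adjusted p = 0.00417, 0.0146 and 0.0212 in limma). Each difference was under 2-fold and without overlap with sham, as were the arrays of 46.6%, 36.2% and 37.5% of all genes without overlap.

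Zbtb46 was measured by 4 probes, and only A_51_P381178 was above background on all 12 arrays. It read -3.67, -4.04 and -3.97 in the sham group, then -4.13, -0.65 and -4.00 after 3 h, -4.51, -4.57 and -3.95 after 12 h and -2.83, -3.83 and -3.67 after 72 h. The 3 h mean was thus set by replicate 2. The difference from sham at 3 h was 0.97 (95% confidence interval -0.72 to 2.66, adjusted p = 0.39 in limma) and became -0.17 without that array. On the same array the probe A_52_P241508 read -4.55, within the range of the other arrays, and the other 2 probes were not above background. The differences were -0.45 at 12 h and 0.45 at 72 h, neither of which passed.

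Xcr1 was above background on 2 of 12 arrays, 72 h replicates 1 and 3, at -4.36 and -4.53. On 72 h replicate 2 and all sham, 3 h and 12 h arrays it was not well above background, so no fold is given for 3 or 12 h. With the sham arrays taken at the lowest signal well above background, its 72 h mean was 1.12-fold higher, with 2 of 3 arrays measured. The fitted difference at 72 h was 0.70 (95% confidence interval -0.12 to 1.51, adjusted p = 0.221 in limma), and the interval includes no change. The fitted difference at 72 h passed without 72 h replicate 2 (adjusted p = 0.0438), and that at 3 h, which compares dim groups only, passed without 3 h replicate 1 (adjusted p = 0.0294) or 72 h replicate 2 (0.0344).

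**Figure D3:**
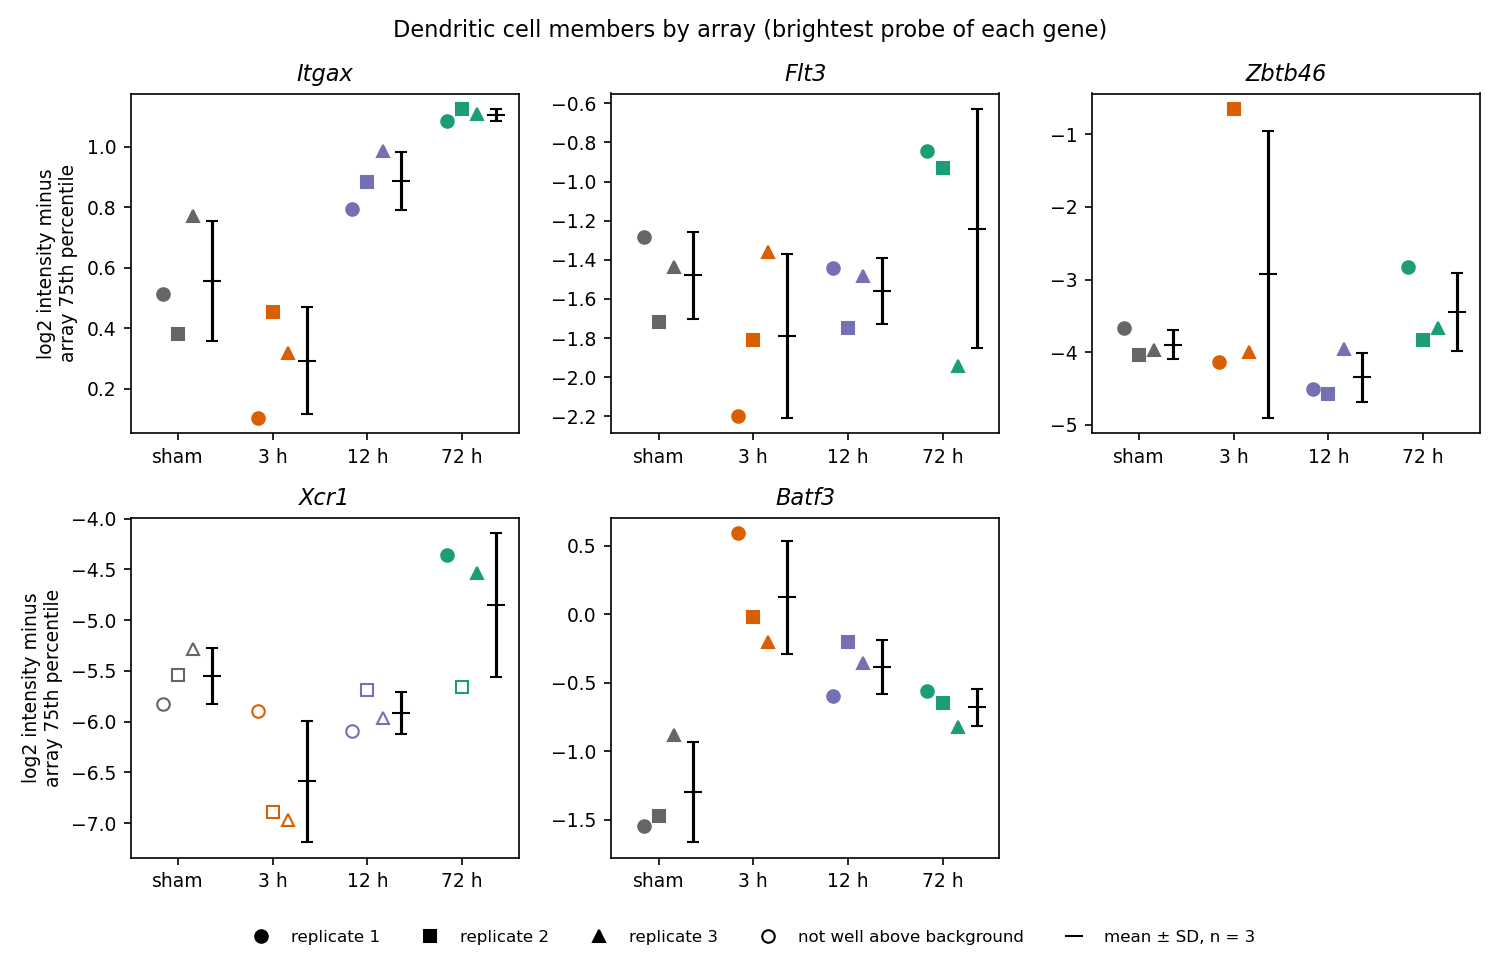
Log2 level, scaled to the 75th percentile of each array, for the 5 dendritic cell members by group, with symbols for replicates, open symbols for arrays not well above background, and the mean ± SD beside them. Batf3 is above sham on all 9 arrays after cauterization, Itgax is highest at 72 h, and 1 array at 3 h sets the Zbtb46 mean.

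The members were then set against all genes. At 3 h 1 of 9 members was called, where 7.37% of the 37074 genes were, with 1 higher (3.26% of all genes) and 0 lower (4.11%). At 12 h 0 of 9 were called, against 9.06% of genes, of which 4.1% were higher and 4.96% lower. At 72 h 0 of 9 were called, against 8.85%, with 4.55% higher and 4.3% lower. From 3 to 12 h, where 3.46% of genes were called (1.89% higher and 1.56% lower), and from 12 to 72 h, where 7.52% were called (4.33% higher and 3.19% lower), 0 members were called. With 9 members, counts of 0 or 1 are near these shares. In the moderated F-test over the 4 groups, which 39.3% of all genes passed, Itgax (adjusted p = 0.00328), Batf3 (0.005) and Xcr1 (0.0194) passed, and the lowest value of the other 6 was 0.0981 for H2-Ab1. Xcr1 was well above background on 2 of 12 arrays, so its test compared mostly dim readings. The 3 comparisons with sham share the same 3 sham arrays. The median of all probes differed from sham by 0.06, -0.02 and -0.15 at 3, 12 and 72 h, while 12 h differed from 3 h by -0.11 and 72 h from 12 h by -0.14, so that at 72 h the differences of the members stood a little higher against the other probes than against the percentile.

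**Figure D4:**
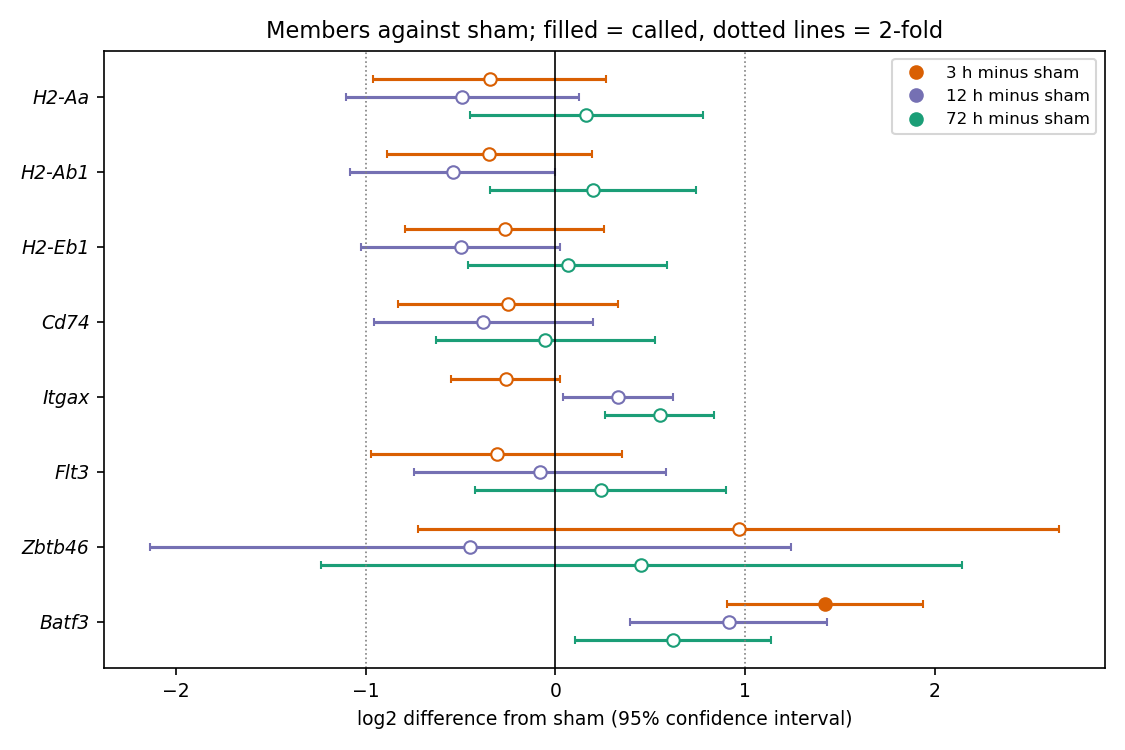
Log2 difference from sham with its 95% confidence interval for 8 members (all but Xcr1, which was not above background in sham) at 3, 12 and 72 h. Dotted lines mark 2-fold and the filled point marks the only call, Batf3 at 3 h.

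The wider families of dendritic cell genes were read from lists, with 1 probe a gene. Of 74 genes in the class II and dendritic cell lists outside the members, 7 were called at 3 h, 10 at 12 h and 14 at 72 h, which is 9.46%, 13.5% and 18.9%. The shares of all genes called at these times, to be set beside every list, were 7.37%, 9.06% and 8.85%. Of the called list genes, 6, 9 and 13 were higher and 1 each time was lower. The lists were put together with earlier results of these data known, so these shares are a description.

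Type 1 conventional dendritic cells take up dying cells and cross-present their antigen. Of 10 genes listed for them besides Xcr1 and Batf3, 0 were called at any time in limma, while 8, 5 and 7 had an unadjusted p under 0.05 at 3, 12 and 72 h, as did 34%, 32.4% and 32.8% of all genes. The median difference was -0.57, -0.26 and -0.19 at these times. Clec9a, the receptor by which these cells sense dead cells, read -1.32, -1.39 and -1.61 in sham and -2.35, -2.25 and -2.20 at 3 h. All 3 h arrays lay below all sham arrays, by 0.83 on average (adjusted p = 0.0174 in limma), under 2-fold. Between these groups arrays of 46.6% of all genes did not overlap. Itgae, which encodes CD103, lay 0.60 below sham at 3 h (adjusted p = 0.00642), and Irf8, a transcription factor of the lineage, 0.26 below. Ifi205 alone lay well above sham, by 1.53 at 3 h (adjusted p = 0.0768). At 3 h, when Batf3 rose, 9 of these 10 genes had means below sham, while the median difference of all genes was 0.08. None of the 10 was called, and which cells carried the Batf3 rise was not tested.

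Type 2 conventional dendritic cells prime CD4+ T cells and share much of their surface with macrophages. Of 10 genes, 0 were called at 3 h, 1 higher and 1 lower at 12 h, and 4 higher at 72 h, when the median difference was 1.17. The mean signal of the list, which its brightest genes set, went the other way, from 4.33 to 4.43 in sham to 3.78 to 3.96 at 72 h. Klf4, a transcription factor also used by epithelium, was 0.87 below sham at 72 h (adjusted p = 0.00153), under 2-fold, Irf4 0.51 and Mgl2 0.38 below. The second probe of Mgl2 was 1.31 below sham at 72 h and 2.01 below at 12 h, both past the threshold. At 12 h the brightest probe of Mgl2 went the other way, 0.65 above sham (adjusted p = 0.0939 in limma). Sirpa, an inhibitory receptor that binds CD47, read 0.84, 0.93 and 1.20 in the sham group, then 0.45, 0.89 and 0.96 after 3 h, 2.01, 1.84 and 2.03 after 12 h and 3.09, 3.10 and 3.17 after 72 h. It rose by 2.13 at 72 h (adjusted p = 2.47e-05 in limma). Ffar2, a receptor of short-chain fatty acids, rose by 1.68, Esam, an adhesion molecule, by 1.49, and Notch2 by 1.13 at 72 h and 1.40 at 12 h. With the slide as a term Esam was no longer called (adjusted p = 0.195). Over the mean of all its probes Notch2 at 72 h was 0.53 (adjusted p = 0.0742 in limma) and was not called. Clec10a, a C-type lectin for galactose, fell by 2.68 at 12 h (adjusted p = 0.0082) and was 1.39 above sham at 72 h (adjusted p = 0.12). It read 0.37, 0.47 and 0.48 in the sham group, then -0.82, -1.16 and -1.77 after 3 h, -1.79, -2.25 and -2.67 after 12 h and 3.05, 2.17 and 0.28 after 72 h, so that 72 h replicate 3 lay just below the sham range and the other two far above it. Taken as the mean of all probes, Clec10a at 12 h was -1.76 (adjusted p = 0.0734 in limma) and was not called. Cd209a and Irf4 were not called at any time. Several of these genes are also used by macrophages, whose genes rose at 72 h as given above, and their part was not tested.

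Of 10 genes shared by dendritic cells or needed for their development, 2 were called at 3 h, 4 at 12 h and 3 at 72 h, all higher. Nfil3, a transcription factor upstream of the type 1 lineage that many cells induce, read -0.01, 0.07 and 1.07 in sham and 2.70 to 3.73 on all arrays after cauterization. It rose by 2.93, 3.06 and 2.88 at 3, 12 and 72 h (adjusted p = 0.000351, 0.000186 and 0.000364 in limma). Spi1, which encodes PU.1, a transcription factor of all myeloid cells, rose by 1.11, 2.95 and 2.57. Of the cells that also express it, neutrophils had 8 of 10 listed genes called higher at 3 h, 9 at 12 h and 7 at 72 h, and monocytes had 4, 7 and 6 of 9. Amica1, a junctional adhesion molecule, rose by 1.24 at 12 h and 1.41 at 72 h (adjusted p = 0.0586 at 72 h with the slide as a term), and Traf1, an adaptor of TNF receptors, by 1.70 at 12 h. The 3 h call of Spi1 went under 2-fold without sham replicate 1 or 3 h replicate 3, at 0.94 to 0.97.

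Mature dendritic cells leave the tissue for lymph nodes under the receptor Ccr7. Of 12 genes of this state, 4 were called at 3 h and 3 at 12 h, all of them higher, while after 72 h 2 were higher and 1 was lower. The mean signal of the list overlapped with sham throughout. It was 1.31 to 1.62 in sham and 1.31 to 2.04 at 3 h. At 12 h it was 1.25 to 1.83 and at 72 h 1.17 to 1.80. Some genes lay below sham without a call. Ccl19 had a mean of -3.25 at 3 h (SD 1.72) against -1.02 in sham, and Socs2 had 0.92 at 12 h against 1.66. Ccr7 read 1.13, 0.99 and 1.74 in the sham group, then 2.07, 1.95 and 3.06 after 3 h, 3.25, 2.74 and 2.96 after 12 h and 1.09, 1.48 and 0.90 after 72 h. It rose by 1.07 at 3 h (adjusted p = 0.0382 in limma) and 1.70 at 12 h (adjusted p = 0.00373), and at 72 h the difference was -0.13. With the slide as a term the 3 h call was lost (adjusted p = 0.0513 in limma). As for Ciita, this fit gave the same values as leaving out 12 h replicate 3. Il12b, a subunit of interleukin-12, rose by 1.62 at 3 h, where replicates 2 and 3 read -1.82 and -2.34 and replicate 1, at -4.05, lay just above the sham range of -4.42 to -4.29. Relb, an NF-κB subunit, rose at 3 h by 1.18 on its brightest probe (adjusted p = 0.00363 in limma) and by 1.11 on the next (0.00527), both called. The dimmest of its 3 probes gave -0.20, and the mean of the 3, at 0.70, was not called. Ccl22, a chemokine, was above background on 2 of 3 arrays at 3 h and at 12 h and on none in sham, and so was at least 1.24-fold and 1.20-fold higher than in sham (adjusted p = 0.0267 and 0.0275). Ccl17, which binds the same receptor as Ccl22, was 1.19 above sham at 3 h (adjusted p = 0.107) and fell by 2.22 at 72 h (adjusted p = 0.00878), when it read -2.24, -1.94 and -2.75 against -1.12, -0.19 and 1.06 in sham. Fscn1, an actin-bundling protein, rose by 1.04 at 12 h and 1.72 at 72 h, and Cd200 by 1.12 at 72 h. With the slide as a term the calls were lost for Ccl17 at 72 h (adjusted p = 0.198), Fscn1 at 12 h (0.0854) and 72 h (0.193), Cd200 at 72 h (0.149) and Ccl22 at 12 h (0.0571). At 12 h that term gave the same values as leaving out 12 h replicate 3, the only 12 h array on slide 2. The second measured probe of Cd200 gave 0.60 at 72 h. Several of these calls were lost without 1 array: Ccr7 at 3 h without sham replicates 1 or 2, 3 h replicate 3 or 12 h replicate 3 (0.72 to 1.07), Il12b without any sham array or 3 h replicates 2 or 3 (1.16 to 1.65, against 2.28 without 3 h replicate 1), and Fscn1 at 12 h without sham replicates 1 or 2 or any 12 h array (0.95 to 1.09). Ccl22 lost its call at 3 h without sham replicate 1 or 3 h replicates 1 or 3, and at 12 h without sham replicate 1 or any 12 h array.

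Plasmacytoid dendritic cells, the main makers of type I interferon, were read from 10 genes, of which 0, 0 and 2 were called higher at 3, 12 and 72 h. Siglech, their defining lectin, differed from sham by -0.26, -0.30 and -0.45 and was not called. The 2 calls were Cox6a2 (1.69, adjusted p = 0.0279 in limma) and Cd300c (1.01, adjusted p = 0.000723). With the slide as a term Cox6a2 had an adjusted p of 0.276. It was no longer called without sham replicates 1 or 2 or 72 h replicates 1 or 2 (1.26 to 1.75, against 2.29 without 72 h replicate 3), nor was Cd300c, which went just under 2-fold, without sham replicate 2 or 72 h replicates 1 or 3 (0.96 to 0.97).

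**Figure D5:**
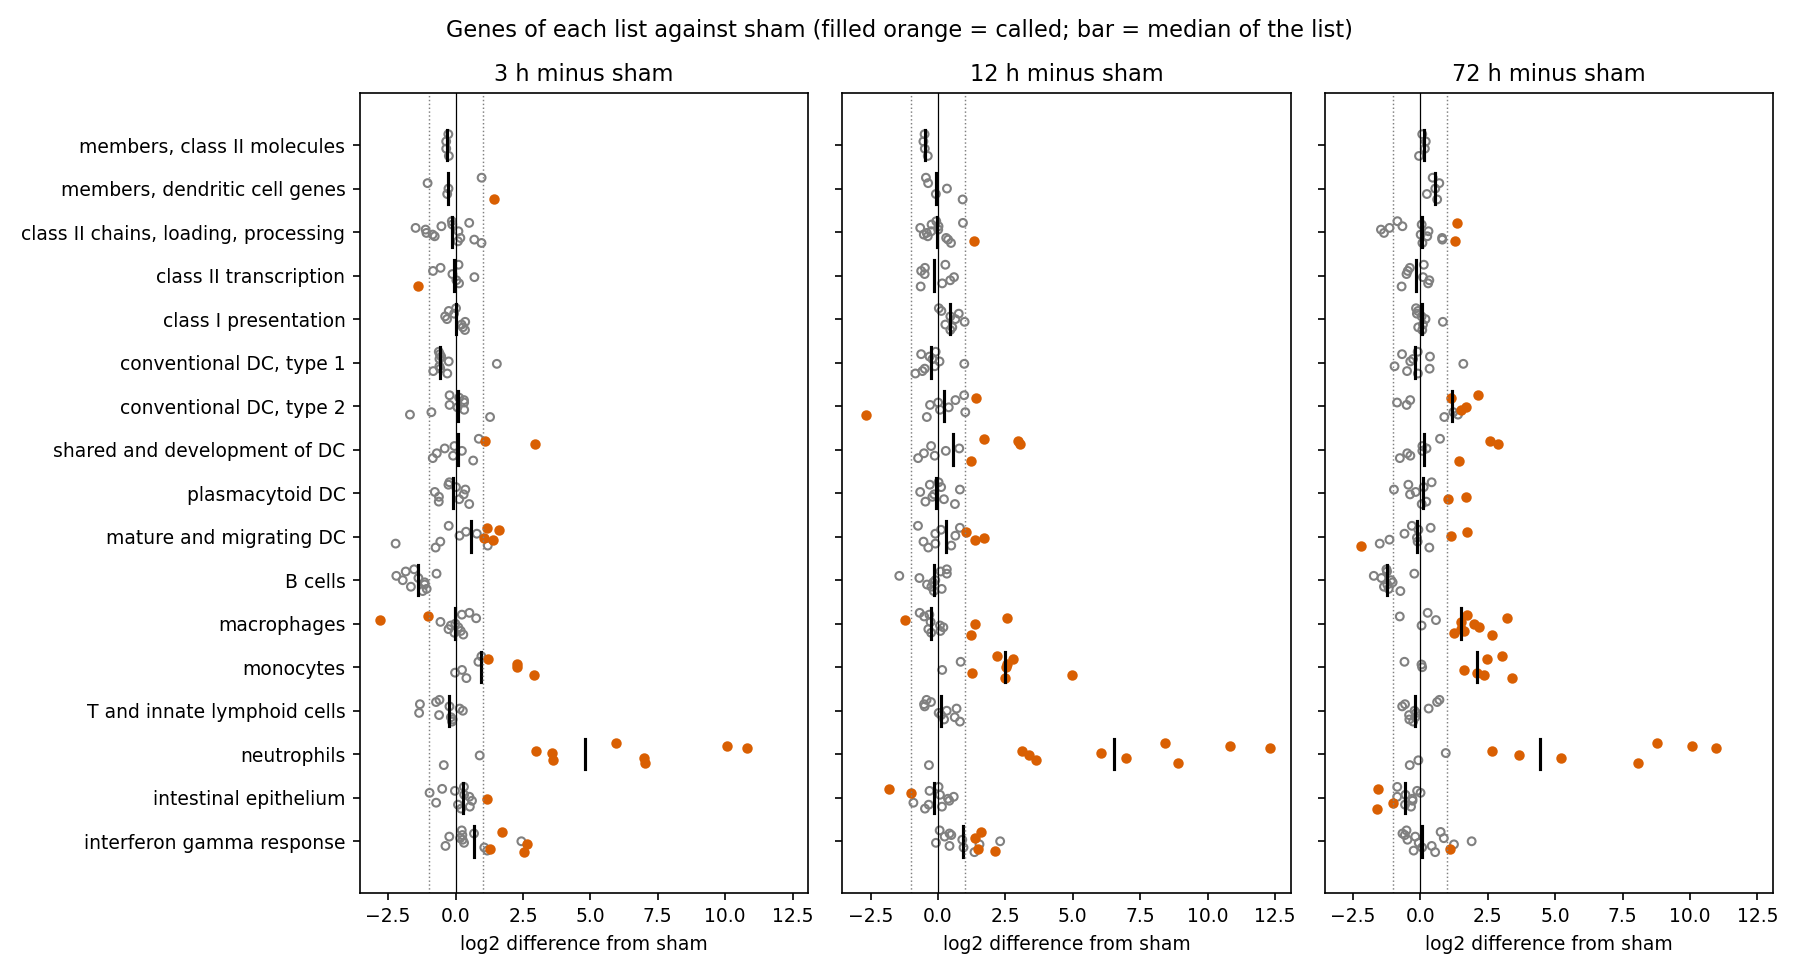
Log2 difference from sham at 3, 12 and 72 h for each gene of the member lists, the class II and dendritic cell lists and lists of other cell types, with called genes in filled orange, dotted lines at 2-fold and the median of each list as a bar. Class II members stay within 2-fold at every time, the medians of type 2 dendritic cell and macrophage genes are above sham at 72 h, and neutrophil genes have the highest median at each time.

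Interferon gamma is the classical inducer of Ciita and class II. Ifng itself was not above background on any sham array and was so on 1 of 3 arrays at 3 h, 2 at 12 h and 2 at 72 h, which gives at least 1.78-fold, 1.62-fold and 1.23-fold higher levels (adjusted p = 0.054, 0.0617 and 0.119 in limma). Of 15 genes of the interferon gamma response, 4 were called higher at 3 h, 4 at 12 h and 1 at 72 h. Gbp5, a guanylate-binding protein, rose by 2.64 and Cxcl10, a chemokine of the CXCR3 receptor, by 2.55 at 3 h, and Cxcl9 by 2.11 at 12 h. Without sham replicate 1 the Cxcl9 difference was 1.25. Its call was lost without 12 h replicates 2 or 3 (2.03 and 1.98). With the slide as a term the values were those without 12 h replicate 3 (adjusted p = 0.0721 in limma). Socs1, an inhibitor of cytokine signalling, rose by 1.73 at 3 h and 1.58 at 12 h, and Gbp2 by 1.29, 1.5 and 1.1 at the 3 times. The call of Gbp2 was lost at 3 h without sham replicate 1 or 3 h replicate 3 (1.22 and 1.18), and at 72 h without any sham array or 72 h replicates 1 or 3 (0.74 to 1.18) and with the slide as a term (0.46). Of the 9 genes of class I presentation, 0 were called at any time in limma (1, 5 and 1 had an unadjusted p under 0.05), with medians of 0.02, 0.46 and 0.04. The means of the class II members and of Ciita lay below sham at 3 and 12 h, in the same samples.

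The single-gene patterns most like the dendritic cell members were listed over the 12 arrays as a description. For Itgax they were Cnn2 (r = 0.958), Lsp1 (0.952), Pip4k2a (0.945), Cd84 (0.943) and Aif1 (0.942). For Flt3 they were Gm35319 (0.882), Ccr9 (0.881), Matk (0.863), Iqcb1 (0.862) and Lppr4 (0.862). For Batf3 the closest named genes were LOC102631952 (0.972) and Rpl34-ps1 (0.959), and for Zbtb46, whose pattern rests on 1 array, Stox2 (0.841) and Gm5592 (0.825).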

How the data were processed

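Total RNA of mouse cecum was labelled with 1 dye and hybridized to Agilent whole-genome mouse arrays, 3 for each of 4 groups. The deposited intensity of each spot is the processed signal of Feature Extraction 11.5.1.1, which had background subtracted and was not scaled between arrays. The authors' own processed log2 table, which they scaled to the 75th percentile in GeneSpring, served as an alternative. Control spots and outlier spots were left out, spots of a probe were averaged, and the log2 intensity of 56605 probes was set to the 75th percentile of each array. The 4 groups were modelled in 1 fit of the 12 arrays by limma 3.58.1 (R 4.3.3), with Benjamini-Hochberg adjustment over all probes. A probe was well above background as the scanner software marked it, and bounds ("at least") use the lowest such signal of the dim arrays. Such a bound compares group means and does not take in the spread of the arrays. The fit was tested on simulated data.

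The members and gene lists were chosen with earlier results of these data known. Named genes were the members, Ciita, Ifng, up to 4 genes of each list with the widest difference, and those behind counts of 5 or fewer. Others, such as Csf1r, Itgae, Irf8, Siglech and Ms4a1, were chosen for their role after their values were seen. Genes carry the names given in the array design, probe coordinates are mm9, and exons were not assigned. Promoters came from RefSeq (GRCm38.p6). The main fit did not treat replicate numbers as pairs. Deviations of same-numbered arrays correlated with r of -0.162 to 0.0866, which cannot exclude a pairing. Alternatives covered normalization, background, filters, slide, replicate block, test, probe choice and each array left out.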

Additional observations from a re-analysis of the deposited data

Results flagged for a closer look

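Of the 74 genes in the class II and dendritic cell lists outside the members, 13 changed between successive times after cauterization, in either step, by limma with adjustment over all probes. Such a step is the difference between the effects at both times against sham. Of all genes 3.46% were called from 3 to 12 h and 7.52% from 12 to 72 h. The lists were chosen with earlier results known, so the count is a description. From 3 to 12 h the step was 1.26 on the log2 scale for Cd80 (adjusted p = 0.0102), 1.27 for Notch2 (0.00128), 1.19 for Sirpa (0.00222) and 1.85 for Spi1 (0.00207). From 12 to 72 h the steps upward were 4.07 for Clec10a (adjusted p = 0.00142), 1.41 for Esam (0.00646), 1.28 for Ffar2 (0.000306), 1.16 for Sirpa (0.000978) and 1.90 for Cox6a2 (0.0188). The steps downward were -2.71 for Ccl17 (adjusted p = 0.00395), -1.83 for Ccr7 (0.00371), -1.79 for Ly6d, a surface protein of lymphoid and plasmacytoid cells (0.00995), and -1.03 for Mgl2, a lectin (0.0176). The second probe of Mgl2 went the other way, by 0.71 (adjusted p = 0.227). Ccl22 had a fitted step of -2.51 (adjusted p = 0.00191) but was not above background at 72 h, so that 12 h was at least 1.30-fold higher. All 72 h arrays lay on slide 2, with 1 of the 12 h arrays. None of the members changed by the same measure in either step.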

How the results depend on the processing

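Of the 9 members, 1 was called at 3 h (Batf3), and 1 to 2 without 1 array, but 0 by treat, which tests against a 2-fold change. A t-test paired by replicate number, after the test the study names for 2 groups, also gave 0. It called 0 of all genes at 3, 12 and 72 h, so it could not decide on Batf3. In the main fit 0 members were called at 12 and 72 h, and 0 to 1 without 1 array, Batf3 at 12 h and Xcr1 at 72 h. From 3 to 12 h the count was 0 without any array, and from 12 to 72 h it was 0 to 1, or 1 with quantile normalization (H2-Ab1). Of the 74 list genes, 7, 10 and 14 were called at 3, 12 and 72 h. The t-test gave 0 each time and treat gave 1, 2 and 4. At 3 h normexp and Dunnett's test gave 3 each, and at 72 h the slide as a block gave 7. Without 1 array the counts were 3 to 9 (3 without sham replicate 1, 4 without sham replicate 2), 8 to 12 and 12 to 17. Of all genes 2732, 3360 and 3282 were called, against 837, 1327 and 1259 with normexp, 370, 729 and 534 with treat, and 0 with the t-test. At 72 h the slide as a block gave 1152 and Dunnett's test 2184. Without 1 array the counts were 2164 to 2848, 2839 to 3662 and 2740 to 3310. The replicate block gave 1, 0 and 0 members, 6, 10 and 14 list genes and 2613, 3247 and 3160 genes. Of 31 calls in the lists, 22 were kept without any 1 array and 31 in the authors' table. Those lost without some array were Ciita, Spi1, Ccr7, Ccl22 and Il12b at 3 h, Ccl22 and Fscn1 at 12 h, and Cox6a2 and Cd300c at 72 h. Fits within 1 slide were chosen after seeing the data. The causes of these changes were not tested. Xcr1 and the dimmer probes of Itgax, Flt3 and Zbtb46 are limited by their signal over background.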
